A study of Mus musculus with 4 samples.

Results

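The genes described here encode the glycosyltransferases that extend, branch and cap the sugar chains of glycoproteins and glycolipids: the sialyltransferases St3gal, St6gal, St6galnac and St8sia, the fucosyltransferases Fut, the N-glycan branching enzymes Mgat, and the B4galt, B3gnt, Gcnt and Galnt transferases. They were chosen by name, as every protein-coding gene whose mouse symbol is one of these 10 stems followed by a number. The rule gave 76 gene identifiers with 75 symbols, since St6galnac2 has 2 identifiers, of 50600 genes in all and 21764 protein-coding genes. RNA had been sequenced from primary T cells of C57BL/6NJ mice, in 1 group of 4 biological replicates with no second condition, so the levels of the members were set against each other inside each library. The file headers name the cells as Th0, activated, sorted and 72 h, meaning T cells activated without being steered to a helper lineage, and the name of a linked protocol gives them as CD4+. All 4 replicates carry 1 donor entry, sex was not collected and age is unknown. Nothing else in the labels says that they came from separate animals or cultures, so each SD and p-value measures the spread between these 4 libraries. The labels call the assay total RNA-seq, while the library protocol that they link to is named PolyA+.

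In a glycoprotein, N-glycans are built on a lipid, moved whole to asparagine, trimmed, and then branched by the Mgat enzymes in the Golgi. Each branch can be given galactose by B4galt enzymes, lengthened by B3gnt enzymes and ended with sialic acid or fucose. Mucin-type O-glycans start with the Galnt enzymes, which put N-acetylgalactosamine on serine or threonine. C1galt1 then makes the core 1 disaccharide, which is either capped by St3gal1 or branched to core 2 by Gcnt1. On T cells these chains are known for setting selectin ligands, galectin binding and the glycoforms of CD43 and CD45.

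Levels are given as TPM, transcript abundance corrected for exonic length and library total, which was derived here from the deposited counts. Counts per library lay between 34978213 and 118937382. A count of 0 allows up to 3 counts at 95% confidence, which covers counting error only. Of the T cell markers all 10 were at 1 TPM or more in every library, Cd4 at 976 ± 29.3 TPM (SD, n = 4). Of the other marker lists, 3 of 8 CD8, NK and gamma-delta genes (summed level 52.8 to 61.6 TPM over the libraries, with Nkg7 at 30.9, Cd8b1 at 21.4 and Cd8a at 0.267 TPM), 3 of 8 B cell genes (19.0 to 22.3 TPM), 1 of 9 myeloid genes (2.13 to 4.46 TPM, Adgre1 at 1.48 TPM) and 3 of 8 endothelial, stromal and epithelial genes (8.84 to 10.2 TPM, Epcam at 3.26, Pdgfrb at 3.22 and Krt18 at 2.09 TPM) were. Lyz2, S100a8, S100a9, Itgax, Cdh5 and Krt8 had 0 counts, and the part of other cells in the members' levels was not tested. Replicates 1 and 2 stood apart from 3 and 4 in Xist, at 278 and 316 TPM against 1.25 and 0.586 TPM, and the other way in the Y-linked Ddx3y, at 0.153 and 0.0739 TPM against 41.2 and 34.0 TPM, and in Eif2s3y, Kdm5d and Uty. The 4 libraries were therefore not repeats of 1 animal's RNA, and their spread is not technical alone. Fewer cells of a kind and less RNA per cell cannot be told apart in such bulk libraries.

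Of the 76 members, 39 (51.3%) were at 1 TPM or more in all 4 libraries, against 49.9% of protein-coding genes. Another 14 (18.4%) had 0 counts in all 4 libraries, against 29.6% of protein-coding genes, and 23 lay between. Galnt2 was counted among the 23, although it averaged 6.14 ± 1.99 TPM over the bases that it shares with no other gene. The share detected was thus near that of the genome. The members together held 1358, 1465, 1442 and 1425 TPM in replicates 1 to 4. A few genes carried most of this: the top 3 by TPM, Galnt6, St3gal1 and Mgat2, held 34.1% of the sum and the top 10 held 66.5%. The place of Mgat2 depends on the length correction. Without it (CPM, counts scaled to the library total alone) Mgat2 averaged 93.3, below B4galt1 at 129.9, Galnt1 at 119.9 and St6gal1 at 116.4, among others. The median of the members' mean levels was 2.76 TPM, beside 1.43 TPM for all protein-coding genes.

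**Figure D1:**
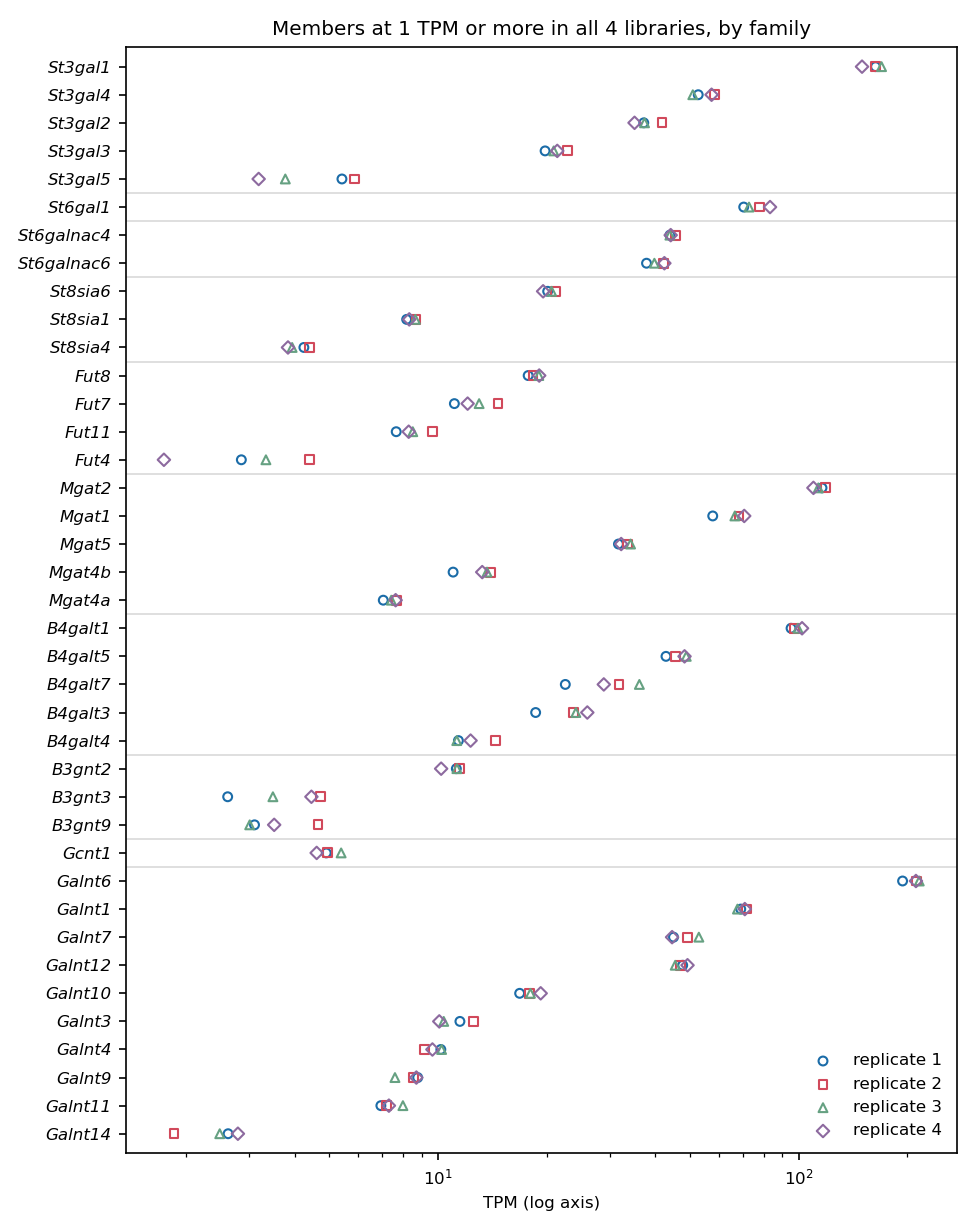
TPM of the 39 members at 1 TPM or more in all 4 libraries, on a log axis, with 1 symbol per library and horizontal lines between families. Within their own family most of these members keep their order in all 4 libraries, while some neighbours from different families exchange places. Fut4 and St3gal5 spread most widely along the axis among the genes plotted in their families.

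The promoters of 4 members are shown because they pair each extent of CpG content with each extent of expression: Mgat2 and Mgat5b are both rich in CpG, with high and no counts, and St6galnac6 and Mgat4c are both poor in it, again with high and no counts. They were picked after their values were seen. Each is the RefSeq window of GRCm38.p6 with 250 bases before and 50 after the start, 5′ to 3′ on the gene's strand, and capitals mark CpG dinucleotides.
Mgat2: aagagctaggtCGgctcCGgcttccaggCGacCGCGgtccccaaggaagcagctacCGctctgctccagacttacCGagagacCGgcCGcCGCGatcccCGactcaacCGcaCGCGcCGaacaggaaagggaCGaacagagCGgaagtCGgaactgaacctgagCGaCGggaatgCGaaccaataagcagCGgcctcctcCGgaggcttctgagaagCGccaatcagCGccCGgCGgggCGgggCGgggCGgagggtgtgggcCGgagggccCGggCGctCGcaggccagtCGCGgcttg
Mgat5b: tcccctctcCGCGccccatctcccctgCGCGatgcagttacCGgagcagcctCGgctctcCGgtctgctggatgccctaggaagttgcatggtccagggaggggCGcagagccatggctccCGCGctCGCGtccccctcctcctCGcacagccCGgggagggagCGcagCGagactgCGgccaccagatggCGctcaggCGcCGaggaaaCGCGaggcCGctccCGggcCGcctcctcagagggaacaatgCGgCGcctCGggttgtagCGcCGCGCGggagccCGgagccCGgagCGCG
St6galnac6: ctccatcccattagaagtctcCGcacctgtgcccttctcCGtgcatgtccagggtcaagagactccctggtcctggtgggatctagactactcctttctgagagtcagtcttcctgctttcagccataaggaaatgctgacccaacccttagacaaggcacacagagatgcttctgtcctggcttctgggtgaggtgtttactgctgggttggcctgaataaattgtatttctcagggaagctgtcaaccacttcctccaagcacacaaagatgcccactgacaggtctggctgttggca
Mgat4c: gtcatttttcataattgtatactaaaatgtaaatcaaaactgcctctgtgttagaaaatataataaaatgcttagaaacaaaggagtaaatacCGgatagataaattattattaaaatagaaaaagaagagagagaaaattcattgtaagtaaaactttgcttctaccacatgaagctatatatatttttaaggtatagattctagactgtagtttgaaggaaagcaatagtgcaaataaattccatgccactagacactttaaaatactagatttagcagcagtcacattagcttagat
The Mgat2 window, chr12:69183908-69184207 on the plus strand, holds 37 CpG, and the gene averaged 115 TPM. The Mgat5b window, chr11:116918613-116918912 on the plus strand, holds 36, and the gene had 0 counts in all 4 libraries. The St6galnac6 window, chr2:32599459-32599758 on the plus strand, holds 2 at 40.6 TPM, and the Mgat4c window, chr10:101681237-101681536 on the plus strand, holds 1 at 0 counts. For Mgat4c the table gives 4 starts, of which the richest holds 10 CpG. The St6galnac6 window overlaps the gene St6galnac4, which lies on the same strand, ends at chr2:32599698 and averaged 44.4 TPM. Most of that window lies before this end, inside St6galnac4, and which start St6galnac6 uses was not tested.

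Promoters were matched for 54 member symbols, taking the start nearest to the deposited gene model. At 10 or more CpG stood 28 of 32 members detected in every library (87.5%) and 14 of the 22 other members (63.6%). The same shares over all protein-coding genes with a promoter were 85.8% of 8692 detected genes and 29.8% of 7777 others, shares that were not tested against those of the members. Of the 10 members with 0 counts and a promoter, 6 reached 10 CpG. The detected members under 10 CpG were St6gal1 with 7, B4galt7 with 8, Fut7 with 8 and St6galnac6, whose window overlaps the end of St6galnac4. The GC box letters GGGCGG, on either strand, were in 27 of 32 detected members (84.4%) and 13 of 22 others (59.1%), against 67.2% of detected protein-coding genes, 27.3% of the others and 48.3% of all 16469 promoters. This motif contains a CpG, so the counts of CpG and of the motif overlap. TATAAA was in none of the 54 member promoters and in 12.8% of all, both strands searched. The ETS core CCGGAA was in 6 of 32 detected members (18.8%), against 31.3% of detected protein-coding genes, and in 4 of 22 others (18.2%), against 6.93% of other protein-coding genes.

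**Figure D2:**
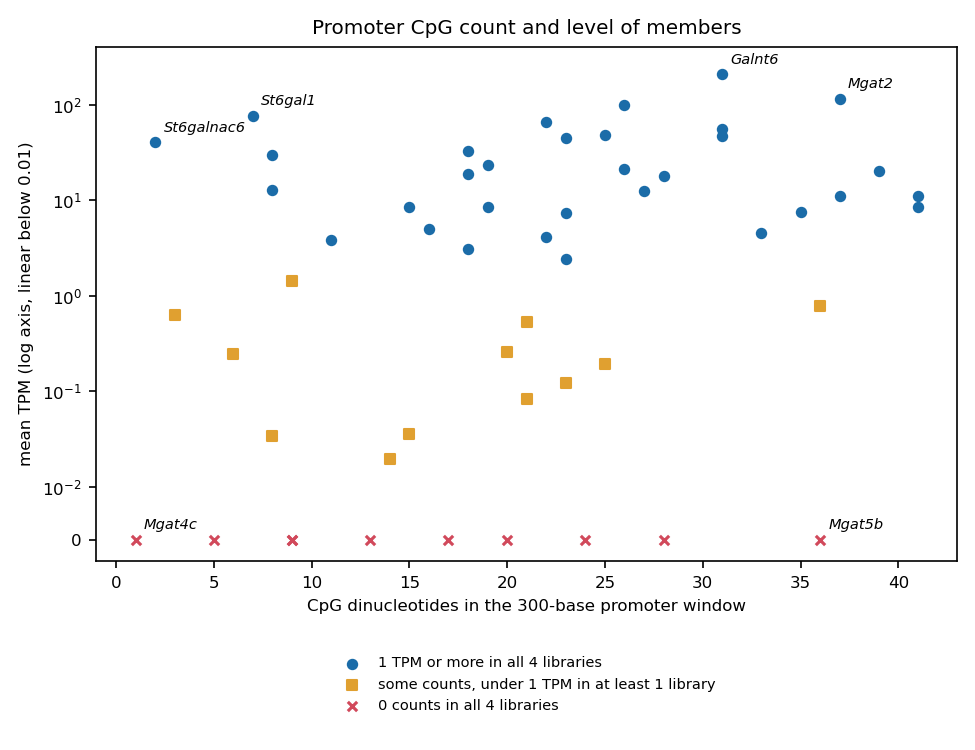
CpG dinucleotides in the 300-base promoter window (horizontal) against mean TPM over 4 libraries (vertical, log axis that is linear below 0.01) for the 54 members with a promoter. Members with 0 counts run along the bottom at 1 to 36 CpG, and members above 1 TPM in every library at 2 to 41.

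By TPM the Mgat enzymes, which branch N-glycans, were led by Mgat2, which opens the second antenna, and Mgat1, which opens the first. Mgat1 had 57.8, 68.3, 66.6 and 70.7 TPM in replicates 1 to 4, and Mgat2 (chr12:69184157-69186770, mm10) 116, 119, 113 and 109.9 TPM. Mgat1 was the lower in every library, by 0.80 ± 0.15 (SD, n = 4) on the scale of log2(TPM + 0.1). That order depends on the length correction. Without it (CPM, counts scaled to the library total alone) the difference was 0.05 the other way, with 3 of 4 libraries higher for Mgat1. By mean CPM Mgat5 was above both, at 105.4 against 96.9 for Mgat1 and 93.3 for Mgat2. In replicate 4 Mgat1 was above Mgat5.

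Of the enzymes for further branches, Mgat5, which adds the antenna that is best known for carrying long lactosamine chains and for galectin binding, was the highest at 31.7, 33.6, 34.2 and 32.2 TPM. Mgat3, whose bisecting residue blocks further branching, had 0 counts in replicates 1, 3 and 4 and 22 counts (0.129 TPM) in replicate 2. Their ranges lay far apart in every library, and no fold is given against counts of 0, since a difference there is set by the pseudocount: its mean was 8.07 log2 with 0.1 TPM added and 5.04 with 1 TPM. The paralogues Mgat4a and Mgat4b both make the remaining branch, and Mgat4a had 7.05, 7.68, 7.42 and 7.63 TPM against 11.01, 13.99, 13.67 and 13.26 TPM for Mgat4b. Mgat4a was the lower in all 4 libraries by 0.79 ± 0.11 log2, and it was the higher by 1.44 on the CPM scale, because its exonic length is the greater. Mgat4c and Mgat5b had 0 counts, and Mgat4d and Mgat4e averaged 0.0195 and 0.244 TPM.

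Galactose is added to these branches chiefly by B4galt1, which had 95.3, 97.3, 99.5 and 102 TPM. B4galt5, known for lactosylceramide synthesis, had 42.9, 45.6, 48.8 and 48.3 TPM. B4galt1 was higher in each library, by 1.09 ± 0.05 log2 or 2.13-fold on the means. B4galt7, which starts the linker of proteoglycans, had 22.5, 31.8, 36.2 and 28.8 TPM, and B4galt3 18.7, 23.8, 24.1 and 25.9 TPM. The TPM ranges of these neighbours overlapped, although B4galt7 was higher in all 4 libraries. By CPM B4galt3 was the higher in all 4 libraries, at a mean of 39.3 against 26.8. B4galt4 averaged 12.4 ± 1.48 TPM, B4galt2 0.786 TPM and B4galt6, the other lactosylceramide synthase, 0.0521 TPM.

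Lactosamine repeats need a B3gnt enzyme, and B3gnt2, the main one for long chains, had 11.2, 11.5, 11.3 and 10.2 TPM. This level is uncertain: 74.7% of its exonic bases lie in other genes on the same strand, where counting dropped any pair that fitted more than 1 gene. Over the bases that B3gnt2 alone occupies its level was 43.7 ± 2.28 TPM. B3gnt3, which extends core 1 O-glycans, had 2.61, 4.72, 3.48 and 4.46 TPM, and its range overlapped that of B3gnt9 at 3.57 ± 0.754 TPM. B3gnt5, the enzyme of lacto-series glycolipids, averaged 1.41 TPM but fell below 1 TPM in replicate 1. B3gnt4, B3gnt6, B3gnt7 and B3gnt8 averaged 0.0618 to 0.192 TPM.

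The highest fucosyltransferase was Fut8, the single enzyme that adds core fucose to N-glycans, at 17.8, 18.3, 19.0 and 19.1 TPM. Fut7 and Fut4 make the sialyl Lewis x type of fucose linkage on selectin ligands, Fut7 on sialylated chains. Fut7 had 11.1, 14.7, 13 and 12.1 TPM, against 2.85, 4.41, 3.33 and 1.74 TPM for Fut4. The ranges did not overlap, and Fut7 was higher in every library by 2.08 ± 0.45 log2, or 4.13-fold on the means, with the widest gap in replicate 4, where Fut4 was lowest. On the CPM scale the difference was 1.30 log2. Fut11 averaged 8.52 ± 0.825 TPM and Fut10 0.906 TPM. Of the enzymes for blood group H, Fut1 had 6 and 7 counts in replicates 2 and 4 and none elsewhere, and Fut2 had none. Fut9, known for Lewis x in brain and kidney, had 0 counts, which allows up to 0.00596 TPM in the deepest library.

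Sialic acid at the third carbon of galactose comes from the St3gal family, whose sum was 279, 293, 284 and 268 TPM. The St6gal family, which uses the sixth carbon, had 70.4, 78.0, 72.9 and 83.3 TPM, all of it from St6gal1, the enzyme of N-glycans. The St3gal sum was higher in each library by 1.88 ± 0.14 log2 or 3.69-fold on the means. Most of that sum came from St3gal1, which acts on core 1 O-glycans, so the sums do not compare enzymes of the same chains. St6gal1 averaged 76.1 TPM. The St3gal members that cap lactosamine averaged 54.8 (St3gal4), 21.3 (St3gal3) and 0.626 TPM (St3gal6). St6gal2 had 0 counts in all libraries, which allows up to 0.0112 TPM in the deepest.

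Within the family, St3gal1 (chr15:67102875-67113992, mm10), the sialyltransferase that caps core 1 O-glycans, had 163, 164, 169.8 and 149.9 TPM and 57.6% ± 2.01 of the family sum. St3gal2, which also acts on core 1 and on gangliosides, had 37.2, 41.8, 37.4 and 35.1 TPM. St3gal2 was lower than St3gal1 in every library by 2.09 ± 0.09 log2, with no overlap. Of the enzymes that cap lactosamine, St3gal4 had 52.7, 58.4, 50.9 and 57.4 TPM and St3gal3 19.8, 22.9, 20.9 and 21.4 TPM. St3gal6, the remaining one, had 0.321, 0.786, 0.774 and 0.624 TPM, lower than St3gal4 in each library by 6.3 ± 0.48 log2. The difference, St3gal6 minus St3gal4, was -5.11 with a pseudocount of 1 and -5.35 on the CPM scale. By TPM the 6 members kept the order St3gal1, St3gal4, St3gal2, St3gal3, St3gal5, St3gal6 in all 4 libraries without overlap of neighbouring ranges. By CPM St3gal2 was above St3gal4 in every library, at 60.5, 64.5, 57.8 and 54.8 against 49.7, 52.3, 45.6 and 51.9. The place of these neighbours thus depends on the length correction.

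St3gal5, which makes the ganglioside GM3, was outside the rule for the named genes and was picked after its values were seen, because it split the libraries. It had 5.41, 5.86, 3.77 and 3.18 TPM, so both libraries with high Xist were above both without. On the scale of log2 CPM the same split was found in 11 of 47 members tested (23.4%), St3gal5 among them, and in 18.2% of genes tested. The mean of St3gal5 was 4.56 ± 1.28 TPM, and whether its level goes with Xist was not tested. By edgeR's goodness-of-fit test it did not pass (adjusted p = 0.978).

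Among the sialyltransferases that act on N-acetylgalactosamine, St6galnac4, which adds a second sialic acid to capped core 1, had 44.0, 45.5, 44.0 and 44.2 TPM. St6galnac6, known for ganglioside synthesis, had 37.9, 42.1, 39.8 and 42.4 TPM. St6galnac4 was higher in each library by 0.13 ± 0.07 log2, the smallest of the 12 differences examined, and the 2 ranges did not overlap. St6galnac1, the maker of the sialyl-Tn antigen, and St6galnac5 had 0 counts. St6galnac3 averaged 0.258 TPM, and the 2 identifiers of St6galnac2 averaged 0.474 and 0.181 TPM while overlapping each other on the same strand, so that some of their pairs could not be counted.

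Chains of sialic acid on sialic acid need the St8sia family. St8sia6, which acts mainly on O-glycans, had 20.1, 21.2, 20.7 and 19.6 TPM and 61.8% ± 0.130 of the family sum, the share with the smallest SD apart from that of St6gal1, which alone made up its family. By CPM the share of St8sia6 averaged 49.2%, so its size depends on the length correction. St8sia4, a polysialic acid synthase, had 4.25, 4.40, 3.94 and 3.84 TPM against 8.18, 8.69, 8.65 and 8.32 TPM for St8sia1, which makes the ganglioside GD3. St8sia4 was lower in all libraries by 1.03 ± 0.09 log2 on the TPM scale. On the CPM scale it was 0.06 higher, with 2 libraries each way. The other polysialic acid synthase, St8sia2, had 0 counts, and St8sia3 and St8sia5 had 1 and 2 counts in a single library each.

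Mucin-type O-glycans begin with Galnt enzymes, and this family had the largest sum, 432 ± 11.6 TPM (SD, n = 4). By TPM Galnt6 (chr15:100691813-100729376, minus strand, mm10) was the highest of all members, at 194, 212, 216 and 212 TPM. This placed it at the 96.1 percentile of protein-coding genes. By CPM it was level with St3gal1, at means of 251.0 and 250.9, and St3gal1 was the higher in replicates 1 and 3. Galnt1, a widely expressed initiator, had 69.1, 71.6, 67.7 and 70.9 TPM. Galnt7 had 44.98, 49.2, 52.9 and 44.6 TPM, and Galnt12 had 47.7, 47.0, 45.5 and 49.2 TPM, so by TPM these 2 exchanged places between libraries. By CPM Galnt7 was the higher in every library, at a mean of 78.3 against 33.7. Galnt10, Galnt3, Galnt4, Galnt9, Galnt11 and Galnt14 followed with means of 18.02 down to 2.43 TPM. Galnt5, Galnt13, Galnt15, Galnt16 and Galnt17 had 0 counts, and Galnt18 averaged 0.321 TPM.

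Galnt2, the other widely expressed initiator, was read at 0.766, 0.801, 0.486 and 0.403 TPM, but this level is uncertain. Of its 4282 exonic bases (gene ENSMUSG00000089704.9), 90.0% also belong to the gene Gm20388 on the same strand, and Gm20388 itself had 0 counts in every library. Pairs falling in the shared bases fitted both genes and were not counted for either. Over the 428 bases that Galnt2 alone occupies, its level was 6.14 ± 1.99 TPM, where pairs reaching into shared bases are still missing. Galnt1 was higher than Galnt2 in each library by 6.66 ± 0.41 log2 on the deposited gene models, by 5.46 there with a pseudocount of 1, and by 3.54 over the unshared bases. B4galt2 (28.2% shared) and Galnt4 (8.25%) were the other members with 1 identifier that shared over 5% of their bases, and their levels became 1.09 and 10.7 TPM over unshared bases.

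The Gcnt family, which includes the enzymes of core 2 branching, had the lowest sum of the families. Gcnt1, the core 2 enzyme of blood cells, had 4.90, 4.93, 5.39 and 4.61 TPM, against 163, 164, 169.8 and 149.9 TPM for St3gal1, which uses the same core 1 acceptor. St3gal1 was higher by 5.00 ± 0.04 log2, or 32.6-fold on the means, the tightest of the 12 differences. Gcnt4 had 0.209, 0.517, 0.712 and 0.705 TPM, Gcnt3 and Gcnt2 averaged 0.249 and 0.0342 TPM, and Gcnt7 had 0 counts. Levels of messages do not give enzyme activity, which was not measured.

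**Figure D3:**
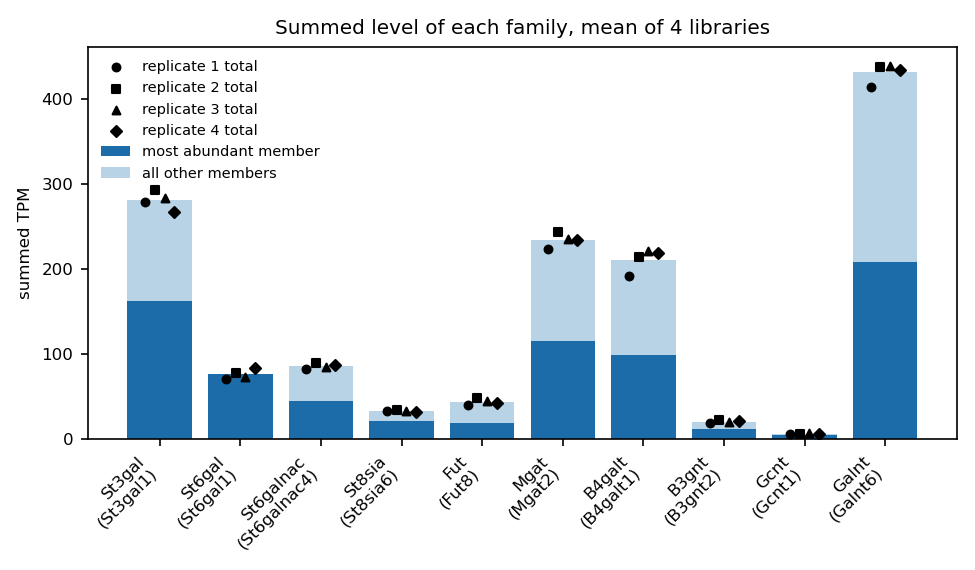
Summed TPM of each of the 10 families, as the mean of 4 libraries, split into the most abundant member (named under the family) and all others, with points for the sum in each library. Galnt has the highest sum at 432 TPM and Gcnt the lowest at 5.77, and St6gal consists of St6gal1 alone.

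For each of the 12 differences between members, taken as pairs or sums that share a substrate, a role or a family, all 4 libraries had the same direction. The exact two-sided sign-flip permutation test over the libraries gave p = 0.13 for each, also 0.13 after Benjamini-Hochberg adjustment over the 12. That is the smallest p that 4 libraries allow, so none could reach 0.05, and the sizes and their SDs carry the comparison.

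**Figure D4:**
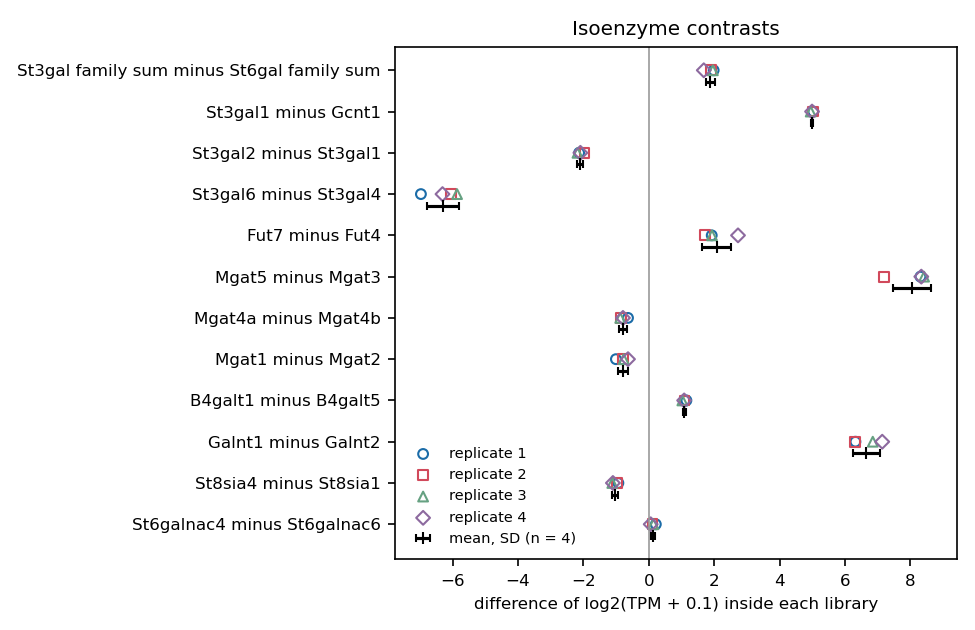
Differences of log2(TPM + 0.1) inside each library for the 12 pairs, the first-named minus the second, with 1 symbol per library and the mean and SD (n = 4) below it. All symbols of a pair lie on the same side of 0, and St6galnac4 minus St6galnac6 lies nearest to it.

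Spread between libraries was tested with edgeR, as the lack of fit of each gene to the dispersion trend over all genes, with Benjamini-Hochberg adjustment. Of 14269 genes tested, 66 (0.463%) varied more than the trend. Of the 47 members tested, 0 did, with 2 at an unadjusted p under 0.05 (4.26%, against 5.69% of all genes tested), and the other scalings, filters and corrections tried also gave 0 except a single common dispersion, which gave 3 (Fut4, St3gal5 and Gcnt4), or 6.38% of members against 6.69% of all genes. The smallest member p was that of Fut4 (unadjusted p = 0.00968, adjusted p = 0.474 by edgeR), followed by B4galt7 (adjusted p = 0.514). The median SD of log2 CPM was 0.10 over the members and 0.12 over all genes tested. St8sia1, at an SD of 0.02 log2, was the steadiest of the members tested, and Gcnt4, at 0.76, had the widest SD, a measure that grows as counts fall. Divided by the median SD of protein-coding genes of like level, the widest were B4galt7 at 2.49 and Fut4 at 2.07, with Gcnt4 at 1.58 and St8sia1 at 0.217.

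The deviations of members were also set against the depth of the libraries. Of the 47, 5 (10.6%) were higher in both libraries with fewest counts, replicates 1 and 3, than in both others, against 15.5% of genes tested, and 11 (23.4%) were lower, against 16.2%. The same 2 libraries were high in the nuclear RNA Malat1, at 348 and 246 TPM against 63.2 and 59.3 TPM, and in Rn7sk, at 149.6 and 80.6 TPM against 20.98 and 15.1 TPM, so depth and these 2 RNAs cannot be told apart. Neat1, examined beside them, did not split this way, at 14.9, 16.6, 21.9 and 16.6 TPM in replicates 1 to 4. With the libraries split instead as Xist splits them, 11 members (23.4%) were higher in replicates 1 and 2, against 18.2% of genes, and 7 (14.9%) were lower, against 18.2%. These shares lay on either side of the background and were not tested. Across 12159 protein-coding genes, deviation correlated with transcript GC content at a Spearman rho of -0.262 in replicate 1 and 0.268 in replicate 4, and with exonic length at -0.15, 0.0152, 0.279 and -0.153 in the 4 libraries, as a description over genes that are not independent. With GC content and length corrected for, edgeR called 0 of the 47 members, against 0.554% of all genes, with 3 (Fut4, B4galt7 and St3gal2) at an unadjusted p under 0.05, against 5.59% of all genes.

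**Figure D5:**
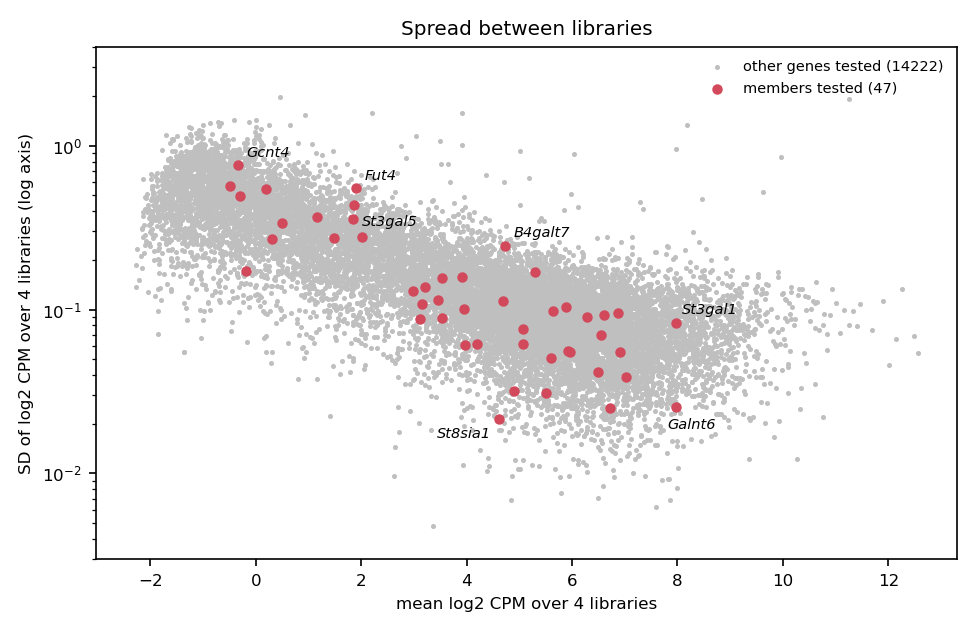
SD of log2 CPM over 4 libraries (log axis) against mean log2 CPM for the 47 members tested and the other genes tested. Members lie within the cloud of genes at every level, with Gcnt4 and Fut4 toward its upper edge at low levels and St8sia1 and Galnt6 low in it.

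The genes around these transferases were mostly present, except for glycan sulfotransferases (3 of 8) and galectins and sialic acid binding lectins (6 of 15). Of 126 genes in 8 lists, 98 were at 1 TPM or more in every library, against 49.9% of protein-coding genes, a share not tested against the lists. All 27 genes of N-glycan assembly and trimming were, led by Ddost at 389 ± 27.0 TPM, Ganab at 366 and Rpn2 at 346. So were all 11 genes listed as Golgi transporters of nucleotide sugars, whose substrates and place in the cell were not examined. The highest of these were Slc35a4 at 137, Slc35c1, for GDP-fucose, at 78.9 and Slc35a1, for CMP-sialic acid, at 64.0 TPM. Of the 21 genes for sugar donors, 20 were at 1 TPM or more in every library. Galk1, galactokinase, was at 303, Tsta3, for GDP-fucose, at 163, and Nans, the sialic acid synthase, at 112 TPM, while Nanp, the phosphatase of that route, averaged 0.568 TPM.

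The neighbouring transferases, which are not members, had 19 of 28 genes at 1 TPM. B4galnt1, which makes the gangliosides GM2 and GD2, had 469.6, 517, 534 and 528 TPM, more than Galnt6 in every library, followed by Ogt, the enzyme of nuclear and cytosolic O-GlcNAc, at 160.0 and B3gat3, of the proteoglycan linker, at 113 TPM. C1galt1, which makes core 1, was at 21.4 ± 1.10 TPM, and Ugcg, which starts glucosylceramide, at 40.4 TPM. Glycan sulfotransferases had 3 of 8, with Chst2 at 46.0, Chst15 at 4.73 and Chst10 at 2.76 TPM. Of 4 sialidases Neu1 was at 65.8 and Neu3 at 24.4 TPM, with Neu2 and Neu4 at 0 counts.

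Of 12 glycoprotein carriers, 10 were at 1 TPM, led by Spn, which is CD43, at 754 ± 29.1 TPM, Itgal at 445.5 and Ptprc, which is CD45, at 224, with Selplg, the P-selectin ligand, at 190.0 TPM. Of 15 galectins and sialic acid binding lectins 6 were, with Lgals1 at 1221 ± 161, Lgals9 at 177 and Lgals8 at 13.6 TPM.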

How the data were processed

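RNA sequencing of 4 libraries of T cells from mice of the strain C57BL/6NJ was analysed. The deposited values are counts of read pairs per gene, made with featureCounts 1.4.6-p4 in stranded mode on STAR alignments and the exons of GENCODE release M13 on mm10, per the file headers. The version of STAR was not given in the sources used here. Options for multiply mapped reads, and for reads that fit several genes, were not switched on, per the file headers. Symbols and gene classes came from GENCODE M21, which matched 50376 of 50600 identifiers. Here TPM, CPM and log2(TPM + 0.1) were derived from those deposited counts with the lengths in the files (Python 3.11.15, pandas 2.3.3, scipy 1.17.1). Spread between libraries was tested in R 4.3.3 with edgeR 4.0.16 (TMM scaling, filterByExpr, estimateDisp, goodness of fit under the trended dispersion, adjusted p under 0.05), first on simulated data, with DESeq2 1.42.0 size factors as an alternative. No contrast between groups was possible with 1 group. No pair of libraries agreed within sampling noise (chi-square per degree of freedom 28.8 to 83.7). Depth of 34978213 to 118937382 counts sets the limits given. Named members were the 2 highest of each family, the 20 highest of all, those of the 12 differences, any called variable, and by name those under 1 TPM, with the 3 highest of each pathway list. The remaining members given by their mean, and Nanp, C1galt1, Ugcg and Selplg, were named after their values were seen. Members and lists were chosen with earlier results of these data known.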

Additional observations from a re-analysis of the deposited data

Results flagged for a closer look

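3 of 45 member levels and differences had 1 library far from the other 3 by Dixon's test, where chance gives 2.25. Mgat3 had 0.129 TPM in replicate 2 and 0 counts in the others, which is 22 counts in the deepest library. St6galnac4 had 45.5 TPM in replicate 2, against 43.95 to 44.2 TPM elsewhere. The log2 difference of Mgat5 minus Mgat3 was 7.20 in replicate 2, against 8.31 to 8.42 elsewhere, and follows from the same Mgat3 counts; in the others Mgat3 had 0 counts, so their values are set by the pseudocount of 0.1 TPM.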

How the results depend on the processing

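With CPM in place of TPM 3 differences reversed: Mgat4a minus Mgat4b to 1.44, Mgat1 minus Mgat2 to 0.0532 and St8sia4 minus St8sia1 to 0.0592 (exact sign-flip p = 0.13, 0.625 and 0.5), the length correction being the only change. The other 9 differences kept their direction under every alternative run, but not their size: the largest shifts were in Mgat5 minus Mgat3 (8.07 to 5.04 with a pseudocount of 1), Galnt1 minus Galnt2 (6.66 to 5.46), St3gal6 minus St3gal4 (-6.3 to -5.11), and, by CPM, Fut7 minus Fut4 (2.08 to 1.30). St6galnac4 minus St6galnac6 was 0.13 by TPM and 0.56 by CPM, and without 1 replicate at a time no difference changed direction. Under a common dispersion 3 members, in place of 0, passed as more variable, and all genes passing numbered 955 in place of 66; the cause was not tested. Leaving out each replicate gave 41 to 68 genes and 0 members. The members at 1 TPM or more numbered 37 to 42 at thresholds of 2 and 0.5 TPM, 41 by CPM and 39 to 40 without a replicate. Over nuclear protein-coding genes alone 24 of 33 named levels moved by more than their SD, and none did with TMM scaling or without a replicate. With unshared bases, chosen after seeing the data like the CPM shares and promoter starts, Galnt1 minus Galnt2 was 3.54. No paired analysis was possible because there is 1 group. Depth limits the members under 1 TPM, whose values rest on few counts.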
